A study of Mus musculus with 10 samples.

Results

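The genes of MHC class II presentation were read on every array of a study of cystic fibrosis knockout mice. They are H2-Aa, H2-Ab1, H2-Eb1, H2-DMa, H2-DMb1, Cd74 and Ciita, 7 of the 19324 genes that the platform annotation lists, and their probe sets were chosen by annotated symbol and not by any measured value. The annotation gives 14 probe sets to 6 of these genes alone. The seventh, H2-DMb1, appears only on 2 probe sets that also list its close relative H2-DMb2, and these 2 are described as a shared measurement. All 16 probe sets were bright enough to be tested.

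Total RNA had been hybridised to 10 oligonucleotide arrays. All animals were F2 offspring of a B6 by BALB intercross, so alleles of both inbred strains segregate in every group. The titles place 5 arrays in knockout H (H1 to H5 below), 3 in knockout L (L1 to L3) and 2 in control (C1 and C2), and H and L are not spelled out. In what follows, H2 alone is the second knockout H array, while H2- opens a gene symbol. The controls carry the letter D in that place of the title, so whatever D, H and L stand for cannot be told apart from the genotype where controls are compared. The sources used here name neither the knockout allele nor ages or a treatment. A letter M or F stands in every title (M on H1, H2, H3, H5, L1 and C2), and the title numbers fall in an upper range (H1, H2, H3, L1 and L2) and a lower one (H4, H5, L3, C1 and C2). No control lies in the upper range. Each title is taken as 1 animal because its number is its own, and p-values measure the spread between these samples only.

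Values are linear intensities per probe set. Cftr, the chloride channel gene lost in cystic fibrosis, read 19.7 to 35.4 in the 8 knockouts, against 131 and 137 in the 2 controls, and fell in the knockouts by 1.91 ± 0.16 on the log2 scale (limma adjusted p = 0.00528). Array medians lay between 18.4 and 18.9, so values near these levels are close to background, and arrays carry no read depth; their small number limits the precision. The labels name whole right lung, whereas markers of small intestine epithelium such as Vil1 (2422 to 2999 in knockouts, 3567 and 3721 in controls) and Fabp2 (3217 to 5178 in knockouts, 6715 and 7345 in controls) were bright on all 10 arrays. The 8 genes of alveolar type 2 cells, a lung epithelial type, summed to 2127 to 6790 in knockout H, 2310 to 4158 in knockout L and 2923 to 3237 in the controls, so markers of both tissues were present. The tissue is therefore called only by its label. The mean log2 deviation of these alveolar genes from their own means was highest on H2 (0.81) and H5 (0.58). These 2 arrays are left out together in 1 alternative below.

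MHC class II molecules are pairs of an alpha and a beta chain that display peptides from endocytosed proteins to CD4+ T cells. The chains assemble around the invariant chain Cd74, which is degraded in endosomes, and the DM molecule then exchanges the remaining invariant chain fragment for antigenic peptide. Dendritic cells, B cells and macrophages are among the cells that carry class II constitutively, and some epithelia can acquire it under interferon gamma. Transcription of the chain genes, the DM genes and Cd74 depends largely on Ciita, the class II transactivator, which is recruited to the RFX, CREB and NF-Y factors bound at the X and Y boxes of their promoters. The H2-A and H2-E chain genes and the DM genes lie together on mouse chromosome 17, in the order H2-DMa, H2-DMb1, H2-Ab1, H2-Aa, H2-Eb1 and H2-Ea. Ciita and Cd74 lie on other chromosomes.

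Because Ciita acts through X and Y boxes, promoter windows are printed for an alpha chain, a beta chain and a DM chain. RefSeq windows of GRCm38.p6, running from 250 bases before to 50 bases after an annotated transcript start, were searched for 4 of the 7 members, H2-DMa, H2-DMb1, H2-Aa and H2-Eb1. No window was at hand for H2-Ab1 and Ciita, and Cd74 was left out of the search. H2-Ab1, Ciita and Cd74 are therefore named only. Capitals mark the Y box (ATTGG, or CCAAT when read on the other strand) and the core of the X box (AACNGATG), both searched on both strands.
H2-Aa, chr17:34287774-34288073, minus strand: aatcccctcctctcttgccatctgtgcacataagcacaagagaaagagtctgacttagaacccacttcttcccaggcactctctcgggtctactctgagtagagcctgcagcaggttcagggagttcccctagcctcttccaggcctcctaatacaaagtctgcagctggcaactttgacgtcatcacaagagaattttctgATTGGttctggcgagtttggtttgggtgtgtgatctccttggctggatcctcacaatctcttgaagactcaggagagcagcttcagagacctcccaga
H2-Eb1, chr17:34305617-34305916, plus strand: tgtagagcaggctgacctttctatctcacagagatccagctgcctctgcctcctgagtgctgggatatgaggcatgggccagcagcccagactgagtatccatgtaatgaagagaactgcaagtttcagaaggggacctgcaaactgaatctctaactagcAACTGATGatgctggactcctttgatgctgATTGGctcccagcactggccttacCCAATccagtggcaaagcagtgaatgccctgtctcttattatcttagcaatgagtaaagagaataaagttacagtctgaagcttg
H2-DMb1, chr17:34152941-34153240, plus strand: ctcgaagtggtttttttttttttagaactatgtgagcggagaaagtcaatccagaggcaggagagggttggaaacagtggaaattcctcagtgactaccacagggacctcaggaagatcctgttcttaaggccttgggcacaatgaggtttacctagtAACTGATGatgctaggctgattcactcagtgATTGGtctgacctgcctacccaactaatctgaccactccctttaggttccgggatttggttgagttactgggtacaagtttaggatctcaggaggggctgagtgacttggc
The Y box began 48 bases before the start in the H2-Aa window, 59 and, on the other strand, 35 bases before it in the H2-Eb1 window, and 61 bases before it in the H2-DMb1 window. The X box core began 89 bases before the start of H2-Eb1 and 92 bases before that of H2-DMb1, and its letters were not in the H2-Aa window. The 2 windows matched to H2-DMa surround transcript starts that lie inside the gene as annotated. Of these, 1 held a Y box 198 bases before the start and neither held the X core. Among all 32851 windows of this length, 37.4% held a Y box, 2.32% the X core and 0.88% both. None of the 5 windows searched, from 4 members, held the GAS element TTCNNNGAA, present in 8.3% of all windows, or the interferon response element, present in 3.44%. The windows of H2-Ab1, Ciita and Cd74 were not searched. A match describes letters only.

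H2-Aa, the alpha chain of the H2-A molecule, had intensities of 648, 3492, 939, 1726 and 1737 in knockout H, 1367, 3686 and 1363 in knockout L, and 2767 and 2401 in the controls. Arrays H2 and L2 lay above both controls and the other 6 knockouts below both, so that the groups overlapped. Its mean was 1708 ± 1107 in knockout H (SD, n = 5), 2138.5 ± 1340 in knockout L (SD, n = 3) and 2584 ± 259 in the controls (SD, n = 2). The same order held for the beta chain H2-Ab1, which read 294, 1688, 424, 845 and 864 in knockout H, 671, 1763.5 and 649 in knockout L, and 1450.2 and 1247 in the controls. H2-Ab1 averaged 899.9 ± 545 over the 8 knockouts and 1349 ± 143 over the 2 controls (SD).

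H2-Eb1, the beta chain of the H2-E molecule, had intensities of 312.8, 1487, 405, 687 and 684 in knockout H, 549, 1511 and 519.8 in knockout L, and 1139 and 869 in the controls. Arrays H2 and L2 were again the brightest, H1 and H3 the dimmest. Over all 8 knockouts it averaged 769 ± 468, against 1004 ± 191 in the 2 controls (SD).

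The DM genes encode the peptide exchange factor. H2-DMa, its alpha chain, read 60.3, 351, 84.2, 180.0 and 155 in knockout H, 155, 442 and 134 in knockout L, and 298 and 243 in the controls. Its brightest knockout lay 7.33 times above its dimmest. A dim probe set of H2-DMa was the only 1 of the 16 on which all 8 knockouts lay below both controls, at 18.5 ± 4.67 in knockouts and 29.7 ± 3.27 in controls (SD, n = 8 and 2). All 8 knockouts lay below both controls for 11.7% of all genes tested. The brighter shared probe set of H2-DMb1 and H2-DMb2 read 46.8, 467, 62.9, 198 and 182 in knockout H, 136, 554 and 168 in knockout L, and 347 and 276 in the controls. The 3 probe sets of H2-DMb2 alone were dim, and the gene's brightest stayed within 26.1 to 55.0 in knockouts and 35.9 to 48.2 in controls.

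Cd74, the invariant chain, read 631, 3397, 874, 2044 and 2184 in knockout H, 1529, 3709 and 1683 in knockout L, and 3160.2 and 3009.5 in the controls. It averaged 2006 ± 1094 over the 8 knockouts and 3085 ± 107 over the 2 controls (SD). The 6 knockouts other than H2 and L2 again lay below both controls.

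Ciita, the regulator of the whole group, was dim. Its brightest probe set read 14.1, 27.3, 14.6, 15.9 and 20.1 in knockout H, 15.0, 32.3 and 16.01 in knockout L, and 25.9 and 22.6 in the controls, near the array medians. Even so, L2 and H2 were its highest arrays and H1 and H3 its lowest, as for its much brighter target genes. Over the 8 knockouts H2-Aa, H2-Ab1, H2-Eb1, H2-DMa and Cd74 spanned 4.83-fold to 7.33-fold, and no span is given for Ciita because its lowest values lay below the array medians.

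**Figure D1:**
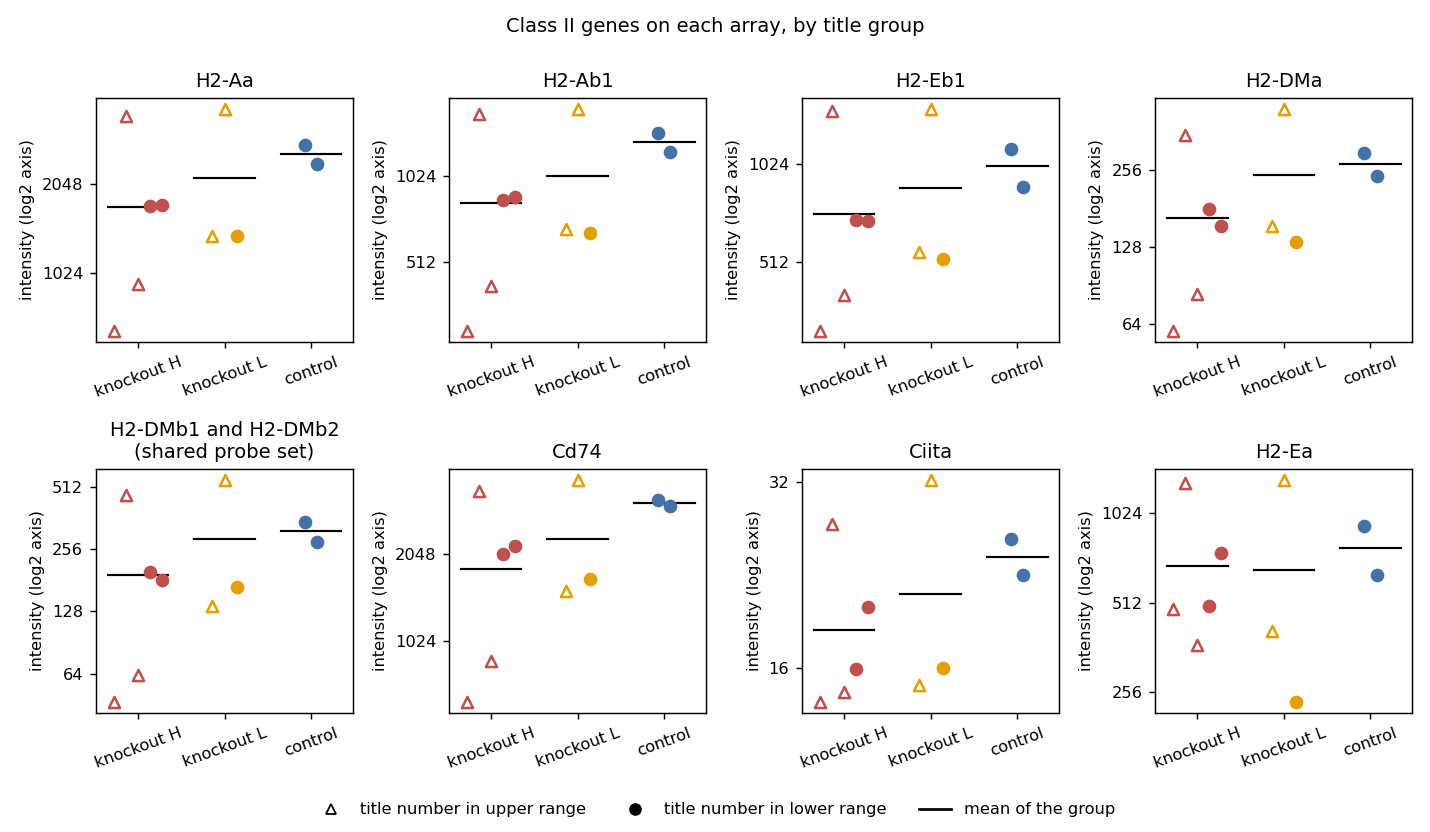
Intensity (log2 axis) of 6 members, the shared probe set of H2-DMb1 and H2-DMb2, and H2-Ea on each of the 10 arrays, grouped as knockout H, knockout L and control. Triangles mark arrays with a title number in the upper range, filled circles the lower range, and lines the group means. In each panel but that of H2-Ea, H2 and L2 lie above both controls and the other 6 knockouts below both, for H2-Aa at 648 to 1737 against 2401 and 2767.

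The probe sets moved together. Arrays H2 and L2 were the highest 2 of 10 on 15 of the 16 probe sets, and H1 and H3 the lowest 2 on 14. The pairwise Pearson correlations between the 6 genes over the 10 arrays lay between 0.862 (Cd74 and Ciita) and 0.998 (H2-Aa and H2-Ab1), as a description of 15 pairs that share their arrays and groups. Several of the probe sets carry the x or s suffix, by which the maker marks probes that can bind related transcripts, so probe sets of related chains are not fully separate measurements.

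The 8 knockouts were compared with the 2 controls, which differ from them in title code and largely in number range as well as in genotype. All 6 members with a value of their own were lower in knockouts, but none passed the test (limma, adjusted p 0.454 to 0.609), and 4.31% of the 13644 genes tested passed it, 2.79% as lower and 1.52% as higher. H2-DMa differed by -0.86 ± 0.63 (log2, SE), H2-Ab1 by -0.87 ± 0.66, H2-Aa by -0.78 ± 0.64, H2-Eb1 by -0.76 ± 0.60, Cd74 by -0.74 ± 0.66 and Ciita by -0.30 ± 0.20. The median over the members was -0.77, beside -0.0047 over all genes. At the level of probe sets, 16 of 16 differences were negative, none was called, and 2.58% of all probe sets were. The lowest adjusted p among them belonged to the dim H2-DMa probe set (-0.50 ± 0.14, limma adjusted p = 0.116). The log2 differences are on the log2(intensity + 16) scale and adjusted for the title letter and number range, which understates the change of the dim Ciita. In whole tissue, fewer cells carrying these transcripts and less transcript per cell cannot be told apart.

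Because both controls carry lower-range numbers, the difference adjusted for the range rests on H4, H5 and L3 against C1 and C2, and the 5 upper-range knockouts enter through the letter and the spread. Within the lower range, all 3 knockouts lay below both controls for each of the 6 genes, as they did for 20.1% of all genes. Fitted on these 5 arrays alone, H2-DMa fell by 0.76 ± 0.14 (SE, limma adjusted p = 0.0235) and H2-Ab1 by 0.77 ± 0.15 (limma adjusted p = 0.0277). Cd74 fell by 0.63 ± 0.12 (limma adjusted p = 0.0277) and H2-Aa by 0.68 ± 0.14 (limma adjusted p = 0.0328). H2-Eb1 differed by -0.67 ± 0.17 (limma adjusted p = 0.0592) and Ciita by -0.26 ± 0.10 (limma adjusted p = 0.175), short of the threshold. So 4 of 6 members were called lower in this fit, which called 7.57% of all genes and 4.4% as lower. Other lists held calls there too, with 9 of 15 interferon gamma targets, 8 of 13 genes of small intestine epithelium and 5 of 18 class I genes lower. The sizes were close to those from all 10 arrays, while the standard errors of the 5 brighter genes were several times smaller. In the same arrays, knockout H (H4 and H5) was called lower for 5 of 6 members, with 8.38% of genes called and 4.67% as lower, and knockout L, there a single array assumed to vary like the other groups, for 5 of 6, with 5.58% called and 3.31% as lower. Ciita was the member short of the threshold in both. These lower-range fits hold only 5 arrays, with the groups and the letter to estimate, so each gene's own spread is poorly known. The single array L3 is fitted exactly in the fit by group and adds nothing to that spread. Standard errors and calls there lean largely on the variance that limma pools over all genes. The 5 brighter genes varied more than most genes among all knockouts, so these standard errors may be too small. The calls are not a replicated result. With all ranges but without array H5, the differences of the 6 members grew to between -0.52 and -1.35 and none was called.

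**Figure D2:**
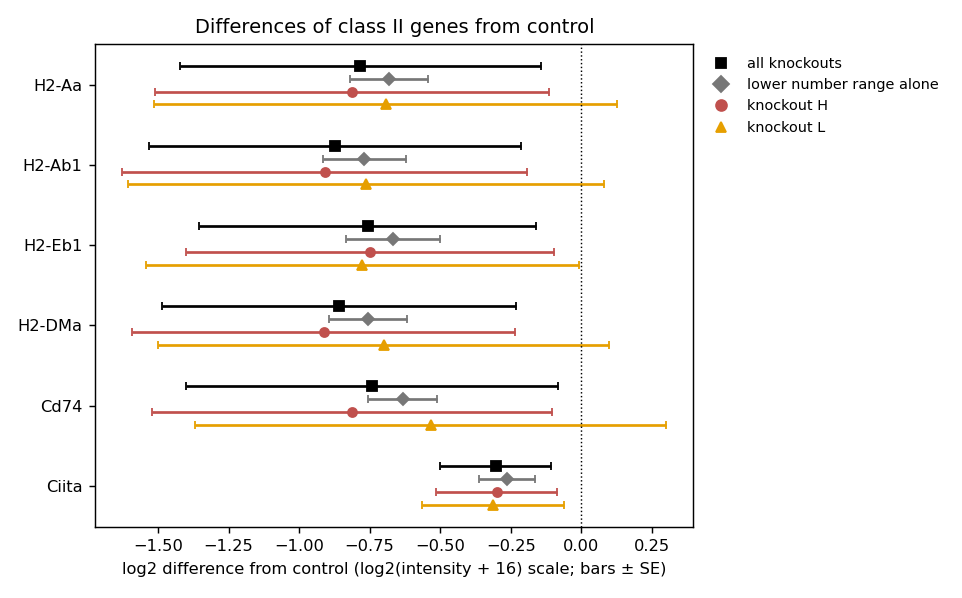
Log2 difference from control on the log2(intensity + 16) scale for 6 members, with bars of ± 1 SE. Squares show all 8 knockouts, diamonds the fit on the lower number range alone (3 knockouts, 2 controls), circles knockout H and triangles knockout L. All estimates are negative, and the diamonds have the shortest bars, for Cd74 -0.63 ± 0.12 against -0.74 ± 0.66 with all arrays.

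The spread among knockouts set these genes apart from most of the array. Their SD over the 8 knockouts was 0.80 to 0.87 on the log2 scale for H2-Aa, H2-Ab1, H2-Eb1, H2-DMa and Cd74, larger than that of 99.4% to 99.6% of genes tested, whose median SD was 0.12. Ciita had an SD of 0.26, at the 89.6th percentile. The spread lay in the upper number range, where the SD of those 5 genes over 5 knockouts was 1.04 to 1.14, against 0.19 to 0.22 over the 3 lower-range knockouts. Upper-range knockouts held the 2 highest arrays, H2 and L2, and the lowest, H1 and H3. The mean deviation of the 6 members from their own means was -1.22 on H1, 0.82 on H2, -0.84 on H3, -0.31 on L1 and 0.95 on L2 in the upper range. In the lower range it was -0.04 on H4, -0.02 on H5, -0.33 on L3, 0.60 on C1 and 0.39 on C2.

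Read by title group, no member was called against control. Knockout H differed from control by -0.81 ± 0.70 for H2-Aa, -0.91 ± 0.72 for H2-Ab1, -0.75 ± 0.65 for H2-Eb1, -0.91 ± 0.68 for H2-DMa, -0.81 ± 0.71 for Cd74 and -0.30 ± 0.21 for Ciita (log2, SE), with limma adjusted p of 0.531 to 0.618. Of all genes, 2.43% were called there. Knockout L, set against the same 2 controls, differed by -0.69 ± 0.82 for H2-Aa, -0.76 ± 0.84 for H2-Ab1, -0.78 ± 0.77 for H2-Eb1, -0.70 ± 0.80 for H2-DMa, -0.53 ± 0.83 for Cd74 and -0.31 ± 0.25 for Ciita, with limma adjusted p of 0.658 to 0.849, where 0.344% of genes were called. Knockout L holds a single lower-range array, and without L3 the estimates for H2-DMa and Cd74 turned to 0.032 and 0.19.

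Knockout H versus knockout L does not take the controls as its reference. They still enter the fit through the letter and the spread. The differences were -0.12 for H2-Aa (95% interval -1.55 to 1.31), -0.15 for H2-Ab1 (-1.61 to 1.32), 0.03 for H2-Eb1 (-1.30 to 1.36), -0.21 for H2-DMa (-1.60 to 1.17), -0.28 for Cd74 (-1.73 to 1.17) and 0.01 for Ciita (-0.43 to 0.45). No member was called, and of all 13644 genes 0 passed with limma and 303 had an unadjusted p under 0.05. The intervals leave room for more than a 2-fold difference either way for each gene but Ciita, so that likeness of the 2 groups is not shown. Within the lower range H2-Aa, H2-Ab1, H2-DMa and Cd74 ran the other way, while H2-Eb1 kept its positive sign. There the 5 brighter genes had 0.32 to 0.49 higher values in H4 and H5 than in L3 on the log2 scale. L3 is the only knockout L array in that fit.

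No member was called for the title letter or the number range. Arrays with M had lower estimates than arrays with F for all 6 members (-0.19 to -0.63 on the log2 scale, limma adjusted p 0.940 to 0.954), where 0.022% of genes were called. Between upper and lower range the 6 estimates ran from -0.11 to 0.43 (limma adjusted p 0.751 to 0.970), where 0.3% of genes were called.

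H2-Ea, the alpha chain partner of H2-Eb1, is not transcribed from the b haplotype that C57BL/6 mice carry, whereas BALB/c mice carry the d haplotype and transcribe it. The reference annotation, made from C57BL/6, lists it as a transcribed pseudogene. Its brightest probe set read 487, 1299.7, 368, 497 and 750.3 in knockout H, 412, 1331 and 236 in knockout L, and 929.7 and 634 in the controls, so signal was present on all 10 arrays. A separate probe set read 172 to 699 in knockouts and 378 to 506 in controls, and the remaining one stayed at 7.21 to 9.79 on all arrays. The labels give no haplotype for any animal. H2-Ea differed between knockouts and controls by -0.80 ± 0.65 (log2, SE, limma adjusted p = 0.569). On the lower number range alone it differed by -0.69 ± 0.40 (SE, limma adjusted p = 0.372). Read by group there, the difference was -0.32 for knockout H and -1.63 for knockout L, the single array L3.

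Set against its partner H2-Eb1 array by array, H2-Ea deviated from its own mean by a like amount on most arrays, and its correlation with the members' mean was 0.784 over the 10 arrays. The difference of the 2 deviations lay between -0.16 and 0.11 (log2) on H2, H3, L1, L2 and C1, and was -0.21 on H4, 0.37 on H5 and -0.20 on C2. Array L3 was the lowest in H2-Ea and stood 0.84 lower in H2-Ea than in H2-Eb1. Array H1 was the lowest in H2-Eb1 and stood 0.86 higher in H2-Ea.

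**Figure D3:**
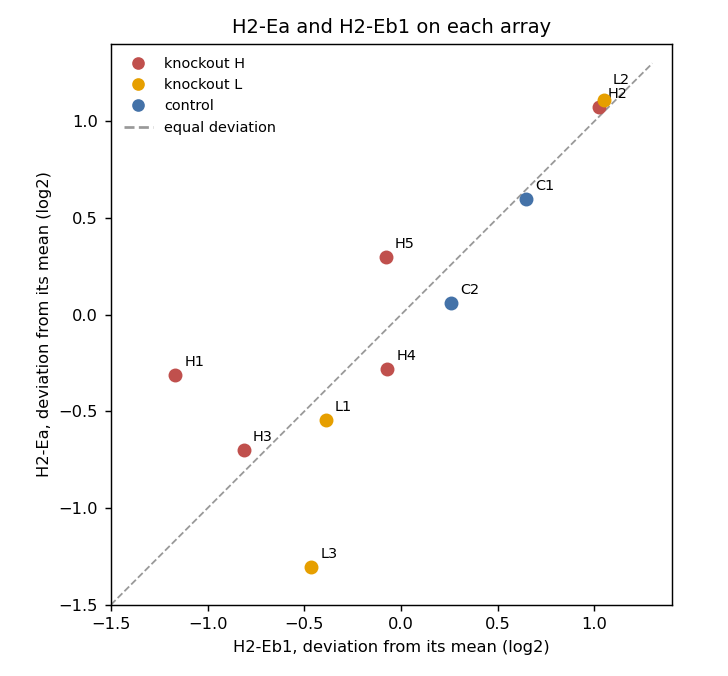
Deviation of H2-Ea (vertical axis) against that of H2-Eb1 (horizontal axis) from their own means over 10 arrays, on the log2(intensity + 16) scale, with 1 labelled point per array coloured by title group and a dashed line of equal deviation. H1 lies 0.86 above the line and L3 0.84 below it, and H2 and L2 lie at the upper end within 0.06 of it.

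The other chains besides H2-Ea were dim. H2-Oa, the alpha chain of the DO molecule that restrains DM, differed by -0.29 ± 0.11 (limma adjusted p = 0.201) and H2-Eb2 by 0.14 ± 0.08 (limma adjusted p = 0.362). Of the 4 chain genes tested outside the members, H2-Ea, H2-DMb2 and H2-Oa had negative differences, H2-Eb2 a positive one, and none was called.

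The factors that recruit Ciita gave no call. Of 8 class II transcription factor genes tested, 4 were lower and 4 higher in knockouts, none was called, and their median was 0.02. Rfx5, the DNA-binding subunit of the RFX complex, read 46.4 to 66.2 in knockouts, against 64.6 and 65.7 in controls (-0.25 ± 0.12, limma adjusted p = 0.328). Rfxank, another RFX subunit, differed by -0.16 ± 0.08 and the NF-Y subunit Nfya by 0.20 ± 0.10 (limma adjusted p = 0.336 and 0.317).

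Among 10 tested genes of peptide processing and class II turnover, 7 were lower in knockouts and 1 was called, as higher. That gene is Sppl2a, the intramembrane protease that clears the last fragment of Cd74 in mouse dendritic cells and B cells. Its intensity was 401, 375, 432, 341 and 435 in knockout H, 461, 452 and 416 in knockout L, and 242 and 271 in the controls. Sppl2a rose by 0.60 ± 0.12 (log2, SE, limma adjusted p = 0.0305), where 1.52% of all genes were called as higher. Its call was lost in 6 of 24 alternatives, among them leaving out H5, L3, C1 or C2. The cathepsin Ctsl, which degrades invariant chain in some tissues, differed by 0.60 ± 0.18 (limma adjusted p = 0.0944), and the tetraspanin Cd82 by -0.39 ± 0.10 (limma adjusted p = 0.0588). In the fit on the lower number range alone, Ctsl rose by 0.59 ± 0.11 and Cd82 fell by 0.39 ± 0.09 (SE, limma adjusted p = 0.025 and 0.0491).

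Interferon gamma target genes had lower estimates in knockouts. All but 1 of 15 tested were lower (median -0.56), and none was called. Ido1, which degrades tryptophan, read 78.6, 185, 193, 122 and 119 in knockout H, 134, 527 and 164 in knockout L, and 325 and 250 in the controls (-1.16 ± 0.44, limma adjusted p = 0.184). The chemokine Cxcl10 differed by -0.56 ± 0.25 and the guanylate-binding protein Gbp6 by -0.94 ± 0.63 (limma adjusted p = 0.252 and 0.476). In the fit on the lower number range alone, Ido1 fell by 1.06 ± 0.13, Cxcl10 by 0.51 ± 0.12 and Gbp6 by 0.79 ± 0.10 (SE, limma adjusted p = 0.00861, 0.0487 and 0.00928). Averaged over the 15 genes, the deviation was highest on L2 (1.31) and H2 (0.73), followed by C2 (0.34) and C1 (0.27), and lowest on H1 (-0.72), H3 (-0.67) and L1 (-0.67). Interferon gamma itself, a gene picked out after its values were seen, lay below the filter at 6.97 to 10.9 in knockouts and 7.33 and 9.02 in controls.

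Class I and peptide loading genes were lower in knockouts for 16 of 18 genes (median -0.29), with none called. Tap2, a subunit of the peptide transporter, read 60.9, 130, 73.1, 103 and 111 in knockout H, 74.9, 183 and 115 in knockout L, and 174 and 156 in the controls (-0.60 ± 0.30, limma adjusted p = 0.328). Tapbp, which tethers class I to the transporter, differed by -0.48 and the nonclassical class I gene H2-T3 by -0.92 (limma adjusted p = 0.0964 and 0.114). On the lower number range alone, Tap2 fell by 0.53 ± 0.10 and Tapbp by 0.45 ± 0.10 (SE, limma adjusted p = 0.0224 and 0.042), while H2-T3 did not pass (limma adjusted p = 0.0505). The neighbours in the class II region with no known role in presentation had a median difference of -0.08 over the 25 tested, and the mean deviation of the 26 measured lay between -0.10 and 0.12 on every array. Of the 25, 17 were lower and 2 were called: Phf1, a Polycomb-associated protein, fell by 0.38 ± 0.07 and Btnl2, a butyrophilin-like gene beside the class II genes, by 0.74 ± 0.15 (limma adjusted p = 0.0245 and 0.03). The call of Phf1 was lost in 5 of 24 alternatives and that of Btnl2 in 7, leaving out C1, C2 or L3 among them.

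**Figure D4:**
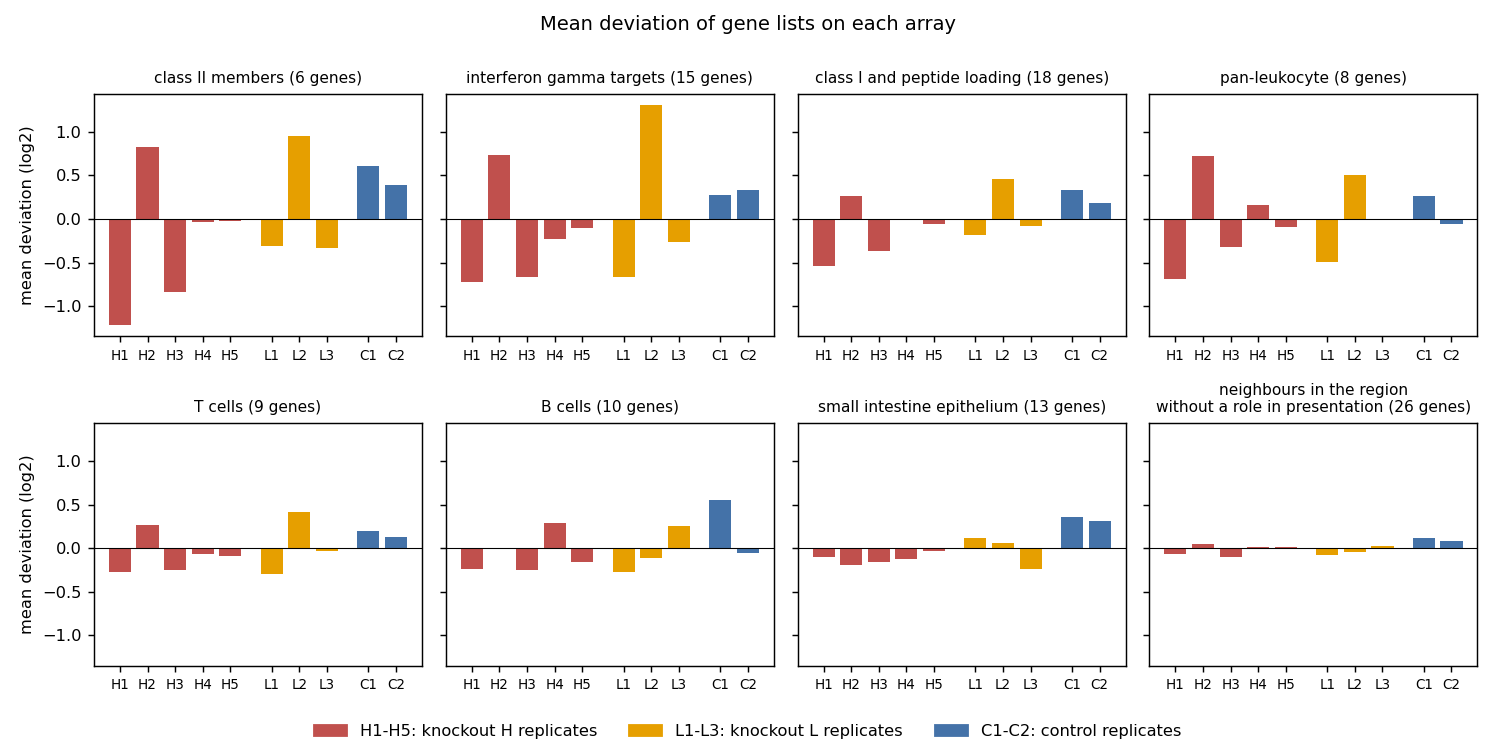
Mean deviation (log2 scale) of 8 gene lists on each array from the genes' own means, with bars for knockout H (H1 to H5), knockout L (L1 to L3) and control (C1, C2). The class II genes run from -1.22 on H1 to 0.95 on L2, the interferon gamma targets from -0.72 to 1.31, and neighbours in the region stay between -0.10 and 0.12.

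Markers of blood cells varied over the same arrays. The summed intensity of 8 pan-leukocyte genes was 580.3 to 1843 in knockout H, 682 to 1547 in knockout L and 1015 to 1304 in the controls, and none of the 8 stayed below the filter level on every array. Their mean deviation was highest on H2 (0.73) and L2 (0.50) and lowest on H1 (-0.69) and L1 (-0.50). Of these, 5 of 8 were lower in knockouts with a median of -0.12 and none was called. Cd52, a small surface glycoprotein of leukocytes, fell by 0.44 ± 0.10 in the fit on the lower number range alone (SE, limma adjusted p = 0.0487). It was the only 1 of the 8 called there, where their median was -0.08 and 4.4% of all genes were called as lower. The part of leukocyte number in the class II values was not tested.

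Single cell types gave the following levels. The 12 dendritic cell genes measured summed to 452 to 890.5 in knockout H, 469 to 891 in knockout L and 713 to 797 in the controls. Of the 9 tested, 5 were lower and 4 higher in knockouts, with a median of -0.039 and none called. On the lower number range alone 1 of the 9 was called lower, beside 4.4% of all genes. It was Itgae, at -0.43 ± 0.09 (SE, limma adjusted p = 0.0351). Itgax, the dendritic cell integrin CD11c, read 27.0, 90.4, 49.9, 58.2 and 60.3 in knockout H, 43.6, 67.9 and 40.4 in knockout L, and 77.3 and 71.0 in the controls (-0.41 ± 0.32, limma adjusted p = 0.552). The 11 macrophage genes summed to 2616 to 5138 in knockout H, 2518 to 4053 in knockout L and 3205 to 3889.9 in the controls. Of the macrophage genes, the mannose receptor Mrc1 rose by 0.48 ± 0.11 and the phagocytic receptor Mertk fell by 0.96 ± 0.20 (limma adjusted p = 0.0408 and 0.035), each call being lost in 10 of 24 alternatives, leaving out H5, C1 or C2 among them.

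Lymphocyte markers differed in the arrays on which they were high. The 9 T cell genes measured summed to 218 to 377 in knockout H, 212 to 454 in knockout L and 334 to 364 in the controls, with Cd8b1 below the filter level on every array, and 8 of 8 tested were lower in knockouts without a call. Cd3d, a chain of the T cell receptor complex, read 19.0, 53.4, 19.6, 35.3 and 26.7 in knockout H, 17.3, 77.8 and 27.1 in knockout L, and 55.9 and 46.3 in the controls, with H2 and L2 high as for class II (-0.65 ± 0.35, limma adjusted p = 0.357). On the lower number range alone Cd3d fell by 0.58 ± 0.11 (SE, limma adjusted p = 0.0227). There 2 of the 8 T cell genes were called lower, beside 4.4% of all genes. The 10 B cell genes measured summed to 153 to 313.02 in knockout H, 145 to 298 in knockout L and 203 to 418 in the controls, and their mean deviation was highest on C1 (0.55), H4 (0.29) and L3 (0.26) and not on H2 (-0.0044) or L2 (-0.11). Of 7 tested, 7 were lower and none was called. Per gene, the sums of these 10 lie near the array medians on most arrays, so background limits the reading of their pattern. The 13 epithelial genes summed to 37869 to 40918 in knockout H, 36574 to 44597 in knockout L and 52963 to 54853 in the controls. Of the 13, 11 were lower in knockouts and 2 higher. Called were 4, all as lower (Vil1, Fabp2, Cdx2 and Anpep, limma adjusted p 0.0111 to 0.0215), beside 2.79% of all genes. All 4 calls were lost without C1 and without C2, and those of Vil1, Anpep and Fabp2 also without H4, as was that of Fabp2 without L3. The part of these cell types in the class II values was not tested.

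Among the remaining lists no gene was called. Lower in knockouts were 3 of 3 costimulation genes (median -0.21), 6 of 7 plasma cell genes (-0.083), 2 of 2 genes of group 3 innate lymphoid cells (-0.11), 4 of 5 lymphoid tissue genes (-0.083), 4 of 7 genes of the interferon gamma pathway (-0.030) and 2 of 8 alveolar type 2 cell genes (0.41).

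The genes most like the class II members were ranked by Pearson correlation over the 10 arrays with the members' mean deviation, among 13638 other genes, as a description over arrays that share groups and covariates. Highest was Psmb9 (r = 0.970), an inducible subunit of the immunoproteasome, whose gene lies within the class II region. It read 171, 605, 179.7, 331 and 293 in knockout H, 219.9, 743 and 277 in knockout L, and 489.5 and 382 in the controls. The lymphocyte surface protein Cd7 (0.955), the peptide transporter subunit Tap1 (0.954), the class I light chain B2m (0.954) and the immunoproteasome subunit Psmb8 (0.953) came next. They were followed by the cytotoxic granule protease Gzmb (0.952), the cytokine inhibitor Il18bp (0.946), the T cell receptor segment Trbv1 (0.941), the gut-homing integrin chain Itgb7 (0.936) and the leukocyte adaptor Cytip (0.936).

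Gzmb spanned 23.8 to 284 in knockouts and read 186 and 168 in controls, while B2m spanned only 2755 to 4768 in knockouts and read 4127 and 3635 in controls. At the other end stood the Mediator kinase Cdk8 (r = -0.919), whose intensity ran from 178 to 221 in knockouts and was 175 and 191 in controls. Mir138-2 (-0.910) and Gm32219 (-0.877), both dim, Insc (-0.875) and Sh2d4a (-0.871) completed the lowest 5.

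Of the 100 highest genes, 0.733% of those ranked, 10 were among the 15 interferon gamma targets, 8 among the 18 class I genes, 5 among the 8 T cell genes and 4 among the 8 pan-leukocyte genes. Dendritic cell and macrophage lists had 2 genes each there, of 9 and 11, and the plasma cell list 1 of 7. B cell genes, neighbours in the region, class II transcription factors and epithelial genes had 0 of 7, 0 of 25, 0 of 8 and 0 of 13. Median correlations were 0.88 for interferon gamma targets, 0.87 for T cells, 0.84 for class I, 0.84 for pan-leukocyte genes, 0.36 for B cells, 0.24 for neighbours, 0.20 for epithelium and 0.16 for class II transcription factors, beside 0.02 over all genes. The genes of the interferon gamma receptor pathway had a median of -0.33. The B cell genes were dim, which limits the reading of their correlations.

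**Figure D5:**
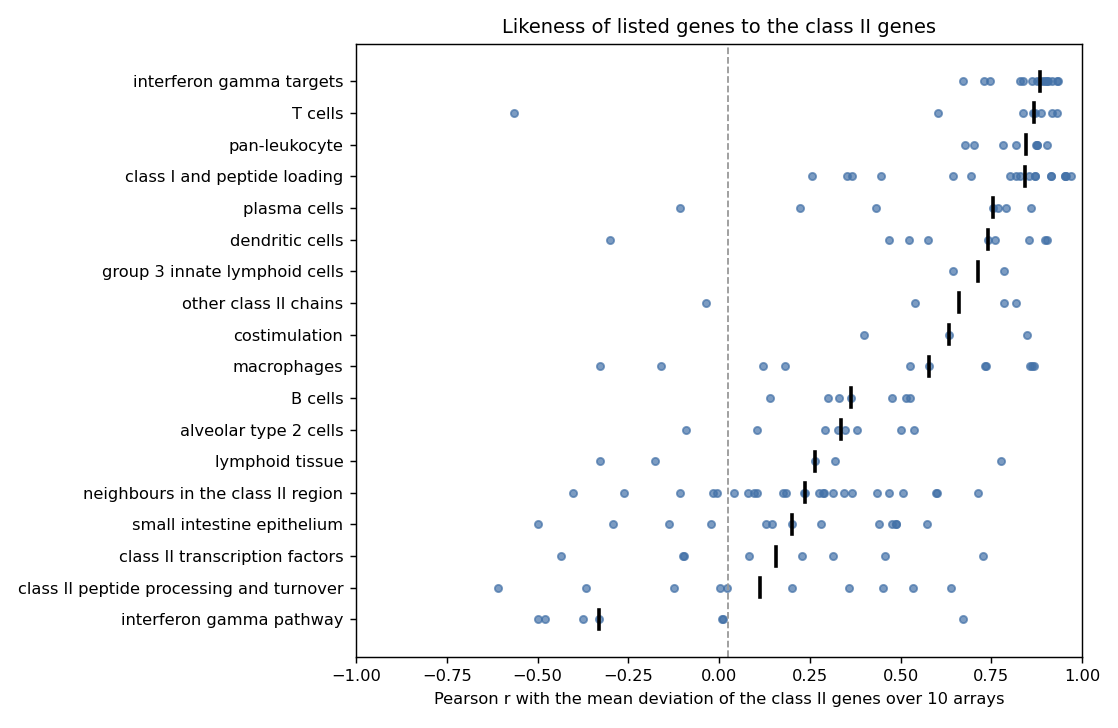
Pearson correlation (horizontal axis) of each tested gene of 18 lists with the mean deviation of the class II genes over 10 arrays, with a black bar at the median of each list and a dashed line at the median of all genes. Interferon gamma targets (median 0.88), T cells (0.87), pan-leukocyte genes (0.84) and class I genes (0.84) lie at the right, and the interferon gamma pathway (-0.33) at the left.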

How the data were processed

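Total RNA of 10 F2 mice was measured on oligonucleotide arrays. The authors deposited linear intensities, 1 per probe set on each array. How these were summarized and normalized is a step not given in the sources used here. The like array medians (18.4 to 18.9) allowed use without further scaling, and no 2 arrays held identical values. The 64 array controls among 45101 probe sets were dropped. Genes were named by the platform annotation, updated through gene identifiers with the RefSeq list of GRCm38.p6 (34741 symbols), and none from the 932 probe sets with several symbols, except the shared H2-DMb1 measurement. Each gene took its probe set with the highest mean, and genes with a mean above the 25th percentile (intensity 13.6) were tested, 13644 of 18193.

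Values were taken as log2(intensity + 16) and fitted with limma 3.58.1 (lmFit, eBayes, two-sided) in R 4.3.3, with title letter and number range as covariates, and p-values were adjusted by Benjamini-Hochberg over the whole table at a threshold of 0.05. Knockouts versus controls used 2 groups, the other comparisons a fit of 3 groups. The script was tested on simulated data. Named were all members, H2-Ea, the 3 genes of smallest p and those called of each list, and the 10 highest and 5 lowest genes by correlation with the members, with Vil1, Fabp2 and Cftr as checks. Of the genes of smallest p, some are left out of the text. Members, lists and design were chosen with earlier results of these data known. Tables were handled with pandas 2.3.3 and plots made with matplotlib 3.10.9.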

Additional observations from a re-analysis of the deposited data

Results flagged for a closer look

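Of 122 groups of arrays tested over 61 genes and probe sets, 5 held an array far from the others by Dixon's ratio of gap to range at its 95% limit, and chance gives about 1 in 20. None of the 5 was a class II member. In the 8 knockouts, Ido1 was high on L2 (ratio 0.546), at 527 beside 78.6 to 193 on the other 7. In knockout H, H2-T3 was low on H3 (ratio 0.850), at 69.1 beside 118 to 129.7. In knockout H, the B cell gene Fcmr was high on H4 (ratio 0.736), at 22.3 beside 9.18 to 12.1. The class I gene H2-Q2 was low on H1, both within knockout H (ratio 0.730) and among all 8 knockouts (ratio 0.584), at 4.37 beside 51.4 to 142 on the other 7 knockouts, with 162 and 131 in the controls. H2-Q2 was picked out after its values were seen.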

How the results depend on the processing

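All 6 members stayed lower in knockouts than in controls under each of the alternatives that gave them a value, at -0.13 to -1.48 on the log2 scale, and calls came only from the fit on the lower number range. That fit holds few arrays, so its calls lean largely on the variance pooled over all genes. Ciita had no value with the filter at the median. Leaving out 1 array gave -0.45 to -1.35 for the 5 brighter members and -0.24 to -0.52 for Ciita. Leaving out H2 and L2, a setting chosen after the values were seen, gave -0.63 to -0.77 and, for Ciita, -0.26. With the probe set of highest variance, the RFX gene Rfxank turned to 0.070. The dim H2-DMa probe set passed on the lower range, without H2 and H5 (-0.66, limma adjusted p = 0.0404) and without H2 and L2 (-0.47, limma adjusted p = 0.0326).

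The direction of knockout H versus knockout L was unstable, and the cause was not tested. H2-Aa turned to 0.039 with the probe set of highest variance. On the lower number range alone the values were 0.39 (H2-Aa), 0.43 (H2-Ab1), 0.41 (H2-DMa) and 0.32 (Cd74). H2-Eb1 turned to -0.29 with no covariates, -0.10 with the letter alone, -0.28 with the range alone, -0.38 without H2 and H5, and -0.10 without H2 and L2. Ciita turned to -0.038 with the mean of probe sets or the probe set of highest variance, -0.091 with no covariates, -0.046 with the letter alone, -0.084 with the range alone and -0.10 without H2 and H5. Leaving out 1 array gave -0.52 to 0.22 for H2-Aa, -0.59 to 0.20 for H2-Ab1, -0.34 to 0.33 for H2-Eb1, -0.67 to 0.11 for H2-DMa, -0.73 to 0.061 for Cd74 and -0.17 to 0.11 for Ciita. For knockout L versus control it gave -1.13 to 0.032 for H2-DMa and -0.99 to 0.19 for Cd74, the positive values without L3.

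The background of called genes moved more. For knockout versus control 588 genes were called, but 1366 with no covariates, 1222 with the letter alone, 1033 on the lower range alone, and 0 to 813 leaving out 1 array (0 without C1, 57 without C2, 121 without H4, 191 without L3, 263 without H5). Over probe sets, 870 became 1948, 1791 and 1557 in these 3 settings, 540 without H2 and H5, and 5 to 1213 leaving out 1 array. Knockout H versus control had 331, but 155 with a pseudocount of 1, 878 with no covariates, 653 with the letter alone, 1143 on the lower range, 99 without H2 and H5, and 0 to 433 leaving out 1 array. Knockout L versus control had 47, but 4 with a pseudocount of 1, 5 with no filter, 3 with the filter at the median, 543 with no covariates, 578 with the letter alone, 173 with the range alone, 761 on the lower range, 19 without H2 and L2, and 0 to 224 leaving out 1 array. Knockout H versus knockout L had 0 genes and 0 probe sets, but 25 and 27 on the lower range alone. The letter had 3, but 5 with the mean of probe sets or without the range. The range had 41, but 26 with a pseudocount of 1, 13 with the mean of probe sets, 106 with the highest variance, 150 without the letter, 1 without H2 and H5 or without H2 and L2, and 0 to 44 leaving out 1 array.

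No paired analysis was possible because the titles give no replicate numbers shared between groups. With 2 controls, both in the lower range, and only L3 of knockout L there, range and genotype overlap in large part. Ciita and the dim H2-DMa probe set lie close to background, which limits their size on this scale.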
